A study of Mus musculus with 6 samples.

Results

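*Zeb1*, *Zeb2*, *Snai1*, *Snai2*, *Twist1*, *Twist2* and *Prrx1*, the transcription factors best known for driving epithelial-mesenchymal transition (EMT), were examined in single cells sorted from colon tumors of mice with and without *Zeb1* in fibroblasts. They were chosen by name and make up 7 of the 19069 genes listed on any plate. Rows of all 7 were present on all 6 plates. By the study's methods, tumors had been induced with the carcinogen azoxymethane and the colitis agent dextran sulfate sodium (AOM/DSS). The sort excluded cells positive for EPCAM (epithelium), CD45 (leukocytes) and CD31 (endothelium), and the labels call the sorted cells cancer-associated fibroblasts (CAFs). Cells of 1 mouse filled the 384 wells of 1 plate, and 3 mice of each genotype were measured. FibCtrl mice, labelled Zeb1Fib-Ctrl, were negative for the Col6a1Cre transgene. FibΔZeb1 mice, labelled Zeb1Fib-deleted, carried it. Both genotypes have loxP-flanked *Zeb1* alleles (Zeb1 fl/fl), and littermates of the same age were compared, males and females, with no age given in the labels. The Col6a1 promoter drives Cre in a subset of mesenchymal cells, so that a FibΔZeb1 plate can hold cells in which *Zeb1* was not recombined.

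EMT transcription factors are DNA-binding repressors and activators that switch off epithelial adhesion genes and switch on a motile, matrix-producing program. ZEB1 and ZEB2 are zinc finger and homeodomain proteins, SNAI1 (Snail) and SNAI2 (Slug) are zinc finger proteins, TWIST1 and TWIST2 are basic helix-loop-helix proteins, and PRRX1 is a paired-related homeodomain protein. In carcinoma cells they are turned on during invasion, whereas fibroblasts and other mesenchymal cells express several of them constitutively. ZEB and SNAI proteins bind E-boxes of the sequence CACCTG, or CAGGTG on the other strand, and recruit corepressors such as the CTBP proteins to the promoters of epithelial genes.

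To show the sites that these factors are known to read, the 250 bases before the transcription start were searched on both strands for CACCTG, the reverse complement of which is CAGGTG. Sequences were those of RefSeq for GRCm38.p6. Of all 32851 promoters, 17.2% held this E-box. In a list of 16 epithelial genes known to be repressed by ZEB or SNAI proteins, 8 genes had a promoter entry, and 6 of these held at least 1 E-box upstream of a start. The list was drawn up from genes known for such sites and is no independent sample of promoters. Of the 11 promoter entries of these 8 genes, 7 held it. Promoters of 3 genes are shown because all of their entries hold at least 2 E-boxes (for *Crb3*, the first of its 2 entries). They encode the polarity protein CRB3 (chr17:57061951-57062200, plus strand, 3 E-boxes), the tricellular junction protein LSR (chr7:30973470-30973719, minus strand, 4 E-boxes) and the epithelial vesicle GTPase RAB25 (chr3:88548280-88548529, minus strand, 2 E-boxes). Each is written 5′ to 3′ with the E-boxes in capitals.
Crb3: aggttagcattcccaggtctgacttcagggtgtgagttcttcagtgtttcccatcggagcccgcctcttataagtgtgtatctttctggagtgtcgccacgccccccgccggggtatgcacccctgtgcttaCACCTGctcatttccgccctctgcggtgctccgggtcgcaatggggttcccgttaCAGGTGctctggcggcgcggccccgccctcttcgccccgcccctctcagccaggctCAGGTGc
Lsr: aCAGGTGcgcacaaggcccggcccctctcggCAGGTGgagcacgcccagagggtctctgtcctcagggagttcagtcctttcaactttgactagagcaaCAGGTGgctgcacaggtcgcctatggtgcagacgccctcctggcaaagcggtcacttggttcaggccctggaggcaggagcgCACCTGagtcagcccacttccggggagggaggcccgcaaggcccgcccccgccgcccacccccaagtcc
Rab25: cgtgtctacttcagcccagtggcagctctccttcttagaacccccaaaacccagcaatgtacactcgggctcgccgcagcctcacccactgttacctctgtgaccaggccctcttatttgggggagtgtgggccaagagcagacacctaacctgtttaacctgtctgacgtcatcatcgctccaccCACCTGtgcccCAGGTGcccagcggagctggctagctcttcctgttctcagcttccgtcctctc
A match describes the letters of the window and does not show that a factor was bound there in these tumors.

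Wells were kept if they held 100 to 6000 genes and under 10% mitochondrial counts, which left 1233 of 2304 wells (583 FibCtrl, 650 FibΔZeb1). Plates held 1575726 to 3699058 transcripts. Each cell was assigned to the cell type with the most detected markers out of 10 (at least 3, with a lead of at least 1). Of the 1233 cells, 557 fell in the fibroblast gate, 67 in the pericyte gate, 79 in the epithelial gate and 453 in the neutrophil gate. The epithelial and neutrophil gates are cell types that the sort gated out, yet *Ptprc*, which encodes CD45, was detected in 74.0% of the neutrophil-gated cells. The library of FibΔZeb1 mouse 3 carries a flow cell code that differs from that of the other mice. Within fibroblasts, 254 cells were iCAF-like, with markers of inflammatory CAFs such as *Sfrp4*, *Ptx3* and *Cd34*, 193 were telocyte-like, with markers of subepithelial fibroblasts such as *Wnt5a*, *Bmp7* and *Nrg1*, and 110 had no subtype. In 59 of the cells with a subtype the 2 lists were 1 marker apart. In the pericyte gate, *Col1a1* reached 5614 CPM (transcripts of a gene per 1000000 transcripts) over the pooled cells against 6418 CPM in fibroblasts, so that the mural identity rests on the 10 pericyte markers. Levels below are transcript counts of a gate summed per mouse and divided by the total of those cells, in CPM, over mice with at least 10 cells in the gate. Mice are numbered 1 to 3 within a genotype.

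*Zeb1*, the gene targeted in these mice, lies on chromosome 18 from 5591860 to 5775467 (GRCm38, plus strand). In fibroblasts it was measured at 112, 107 and 94.0 CPM in FibCtrl mice 1 to 3 and at 57.3, 70.8 and 61.4 CPM in FibΔZeb1 mice 1 to 3. All FibΔZeb1 mice were below all FibCtrl mice. The means were 63.2 ± 6.96 CPM (SD, n = 3) and 104 ± 9.22 CPM (SD, n = 3), and the exact two-sided permutation test gave p = 0.10, the smallest that 3 against 3 mice allow. In edgeR's quasi-likelihood test over all genes, the log2 difference was -0.70 ± 0.22 (SE), with an adjusted p of 1.0 (Benjamini-Hochberg). No gene of the 8836 tested passed the threshold of 0.05 in this comparison (0%, 0 genes), although 123 had an unadjusted p under it and DESeq2 called 1 gene, *Procr*. *Zeb1* was thus lower in every FibΔZeb1 mouse without passing the test across genes. SORT-seq reads the 3′ end of transcripts, and the exon removed by Cre is not given in the sources used here. If it lies outside the counted end, a deleted allele can still give counts, and these values do not measure the share of recombined cells.

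The genotype difference of *Zeb1* was also present within the fibroblast subtypes. In telocyte-like cells, FibCtrl mice were at 77.6, 93.7 and 87.6 CPM and FibΔZeb1 mice 1 and 2 at 41.5 and 37.5 CPM. The genotypes did not overlap, and the log2 difference was -0.99 ± 0.28 (SE, edgeR) with an adjusted p of 0.679. Here again 0 of 7957 genes passed (0%), 365 had an unadjusted p under 0.05 and DESeq2 called 7 genes. In iCAF-like cells the single FibCtrl mouse with at least 10 such cells was at 141 CPM and FibΔZeb1 mice 1 and 2 were at 81.6 and 82.0 CPM. Among fibroblasts without a subtype, FibCtrl mouse 1 was at 74.5 CPM and FibΔZeb1 mice 1 and 2 were at 58.3 and 46.1 CPM. Neither gate allowed a test, and in both the FibΔZeb1 values lay below the FibCtrl value. Mice with fewer than 10 iCAF-like cells, which entered no test, were at 146 and 142 CPM (FibCtrl mice 2 and 3, 6 and 8 cells) and at 73.0 CPM (FibΔZeb1 mouse 3, 4 cells). FibΔZeb1 mouse 3 was at 69.5 CPM over its 9 telocyte-like cells, so that the genotypes also did not overlap in these gates with all 6 mice. Fibroblasts without a subtype overlapped once the sparse FibCtrl mice 2 and 3 (0 and 29.9 CPM, 2 and 5 cells) were included. In the pericyte gate FibCtrl mice 1 and 3 were at 53.5 and 44.9 CPM and FibΔZeb1 mouse 1 at 42.7 CPM, from 5, 6 and 22 transcripts. A fit of the genotype difference in fibroblasts against that in pericytes called 0.0608% of 9875 genes (edgeR) and no member. Its FibΔZeb1 pericyte arm was 1 mouse, assumed to vary like the other sums, so that it does not test whether *Zeb1* differed between the gates.

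*Zeb1* was detected in fewer FibΔZeb1 fibroblasts at equal depth. When each fibroblast was thinned to 5000 barcodes, 40.4%, 37.0% and 32.5% of cells held *Zeb1* in FibCtrl mice 1 to 3 and 22.7%, 27.1% and 18.1% in FibΔZeb1 mice 1 to 3. The depth of 5000 barcodes was chosen after the data had been seen. At the depth of 500 barcodes that keeps the shallow neutrophils, 3.98% ± 1.46 (SD, n = 6 mice) of all fibroblasts held it. Without thinning it was found in 55.9%, 52.6% and 52.6% of FibCtrl and 42.8%, 34.4% and 37.5% of FibΔZeb1 fibroblasts, at a median depth of 11680 barcodes over all fibroblasts. Before and after thinning the genotypes did not overlap.

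Across cell types *Zeb1* was a gene of the mesenchymal gates. Its mean level was highest in iCAF-like cells (102 ± 34.2 CPM, SD, n = 3), then 67.6 ± 26.3 CPM (n = 5) in telocyte-like cells, 59.6 ± 14.3 CPM (n = 3) without a subtype, 47.0 ± 5.67 CPM (n = 3) in pericytes, 31.7 ± 14.3 CPM (n = 6) in neutrophils and 2.71 ± 4.69 CPM (n = 3) in epithelium. The ranges of neighbouring gates in this order overlapped, except those of neutrophils and epithelium. In the epithelial gate 2 *Zeb1* transcripts were counted, both in FibCtrl mouse 3. Fibroblasts were higher than epithelial cells by 5.02 ± 0.73 (log2, SE, edgeR with mouse as a block, adjusted p = 1.57e-06), a comparison in which 21.8% of 7742 genes passed. With so few epithelial counts, *Zeb1* passed the low-count filter through the other gates, so that its side had to follow. The same limit holds below for each member with few counts in the epithelium. Against pericytes the log2 difference of *Zeb1* was 0.96 ± 0.46 (edgeR, adjusted p = 0.239), where 11.5% of genes passed. Both comparisons come from the 18 sums of the 4 cell types, with pericyte sums of 3 mice and epithelial sums of 3 mice.

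iCAF-like cells held more *Zeb1* than telocyte-like cells. Within the mice that had both gates, the levels were 141 against 77.6 CPM in FibCtrl mouse 1, 81.6 against 41.5 CPM in FibΔZeb1 mouse 1 and 82.0 against 37.5 CPM in FibΔZeb1 mouse 2. The subtypes differed in the same direction in 3 of 3 mice and in both genotypes. The log2 difference was 1.15 ± 0.23 (SE, edgeR with mouse as a block, adjusted p = 0.00678), and 8.69% of 10071 genes passed in this comparison. The adjusted p was 0.186 without FibCtrl mouse 1 and 0.0962 without FibΔZeb1 mouse 1, at log2 differences of 1.16 and 1.17. The share of iCAF-like cells among fibroblasts ran from 14.0% to 51.4% in FibCtrl mice and from 25% to 77.0% in FibΔZeb1 mice, so that sums over all fibroblasts mix the subtypes in unequal parts.

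**Figure D1:**
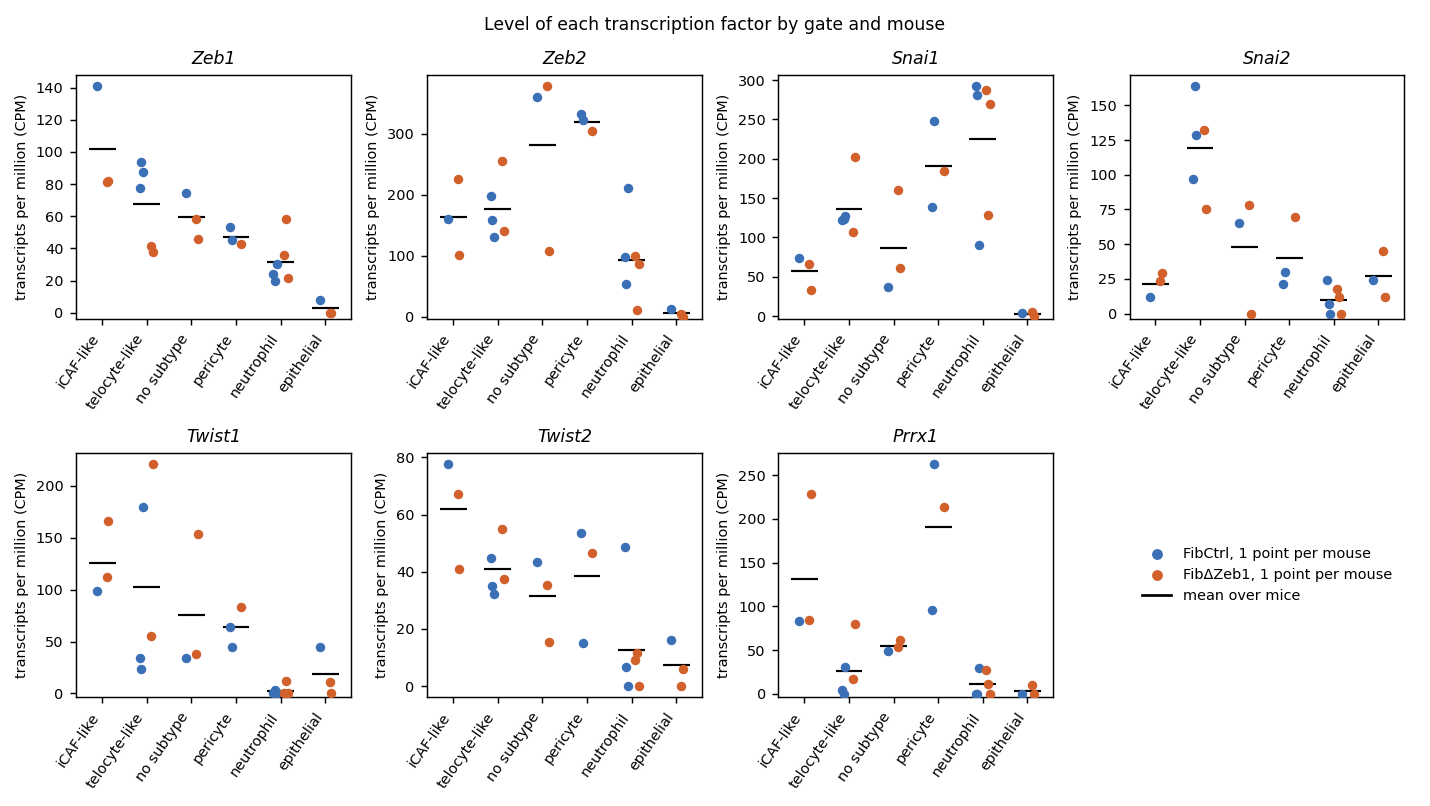
Level of each transcription factor in CPM (linear axis, scaled per gene) for 6 gates on the x axis. Each point is 1 mouse with at least 10 cells in the gate, blue for FibCtrl and orange for FibΔZeb1, and black lines are means over mice. *Zeb1* of FibΔZeb1 mice lies below that of FibCtrl mice in each fibroblast gate, *Snai2* is highest in telocyte-like cells at a mean of 119 CPM, *Prrx1* in pericytes at 191 CPM, and *Snai1* in neutrophils at 225 CPM.

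*Zeb2* lies on chromosome 2 from 44983632 to 45117395 (minus strand). Its antisense gene *Zeb2os* overlaps it, the strand setting of the counting is not given in the sources used here, and reads of both cannot be told apart. *Zeb2* was measured at 202, 200 and 135 CPM in fibroblasts of FibCtrl mice 1 to 3. Fibroblasts of FibΔZeb1 mice 1 to 3 held 266, 110 and 158 CPM. The genotypes overlapped, and the log2 difference was 0.02 ± 0.35 (edgeR, adjusted p = 1.0). A genotype difference of *Zeb2* was not detectable with 3 mice a genotype. In telocyte-like cells the difference was 0.41 ± 0.30 (edgeR, adjusted p = 1.0).

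Pericytes held the highest mean level of *Zeb2*, with 331 and 322 CPM in FibCtrl mice 1 and 3 and 305 CPM in FibΔZeb1 mouse 1. Fibroblasts without a subtype followed at 282 ± 151 CPM (SD, n = 3), telocyte-like cells at 177 ± 51.0 CPM (n = 5), iCAF-like cells at 163 ± 62.6 CPM (n = 3), neutrophils at 92.9 ± 66.6 CPM (n = 6) and epithelium at 5.82 ± 6.11 CPM (n = 3). Ranges of all neighbouring gates overlapped. Fibroblasts exceeded the epithelium by 4.68 ± 0.61 (log2, edgeR, adjusted p = 2.04e-07) and differed from pericytes by -0.46 ± 0.40 (edgeR, adjusted p = 0.646). iCAF-like and telocyte-like cells differed by -0.12 ± 0.28 (edgeR, adjusted p = 0.899). At 5000 barcodes *Zeb2* was found in 51.9% ± 10.2 of fibroblasts (SD, n = 6 mice) and in 76.6% of the 33 pericytes of FibΔZeb1 mouse 1, against 3.59% ± 0.357 (n = 2) of epithelial cells, whose median depth was 10642 barcodes.

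Against neutrophils both ZEB genes passed the test, at log2 differences of 0.99 ± 0.42 for *Zeb1* (edgeR, adjusted p = 0.0397) and 0.81 ± 0.35 for *Zeb2* (edgeR, adjusted p = 0.0451). In this comparison 60.1% of all genes passed and the median of all genes was itself 0.78, so that *Zeb1* lay 0.22 and *Zeb2* 0.03 above the median gene. With DESeq2's size factors that median was 1.06. Without FibCtrl mouse 1 the adjusted p-values were 0.134 and 0.114, and without FibΔZeb1 mouse 2 that of *Zeb2* was 0.130. Leaving out FibCtrl mouse 2, FibCtrl mouse 3 or FibΔZeb1 mouse 3 moved that of *Zeb1* to 0.0792, 0.0890 and 0.0675, and leaving out FibCtrl mouse 2 moved that of *Zeb2* to 0.0575. With at least 20 cells per sum they were 0.230 for *Zeb1* and 0.0983 for *Zeb2*, so that *Zeb1* lost its call in 5 and *Zeb2* in 4 of 14 alternatives. The collagens, which neutrophils should lack, came to a median of 4.53% (*Col1a1*) and 5.14% (*Col3a1*) of the level in fibroblasts of the same mouse, at most 14.7%. For *Zeb1* this share was 33.5% (range 18.4% to 82.3% over 6 mice) and for *Zeb2* 42.7% (10.6% to 156%). By genotype the *Zeb1* share was 21.8%, 18.4% and 32.0% in FibCtrl mice 1 to 3 and 62.8%, 82.3% and 35.0% in FibΔZeb1 mice 1 to 3. The fibroblast level by which it is divided was lower in FibΔZeb1 mice, and the log2 difference of 0.99 pools both genotypes. The *Zeb1* shares rest on 1 to 6 *Zeb1* transcripts a mouse. In FibCtrl mice 1 and 3 it was 1 transcript, at 24.4 and 30.1 CPM, where 3 counts would be 73.1 and 90.3 CPM. The shares of *Zeb1* and the collagens can therefore not be ranked. The part of RNA from other cells in these levels was not tested.

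*Snai1*, an early and short-lived EMT factor, lies on chromosome 2 from 167538195 to 167542814 (plus strand). Unlike the other 6 genes, it had its highest mean level in neutrophils. Neutrophil levels were 292, 281 and 90.3 CPM in FibCtrl mice and 288, 128 and 269 CPM in FibΔZeb1 mice, from 3 to 85 transcripts. The genotypes overlapped. Fibroblasts were lower than neutrophils by -1.89 ± 0.36 (log2, edgeR, adjusted p = 3.91e-05), whereas the median gene was higher in fibroblasts. *Snai1* in neutrophils came to a median of 299% of the level in fibroblasts of the same mouse (range 87.0% to 779%), where the highest collagen share was 14.7%. At 500 barcodes it was found in 9.76% ± 4.11 of neutrophils (SD, n = 6 mice, median depth 1436 barcodes) and 3.59% ± 1.40 of fibroblasts (n = 6).

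Pericytes were next at 190 ± 54.5 CPM (n = 3), followed by telocyte-like cells at 136 ± 37.4 CPM (n = 5), fibroblasts without a subtype at 86.2 ± 64.9 CPM (n = 3), iCAF-like cells at 57.8 ± 21.6 CPM (n = 3) and epithelium at 3.11 ± 2.76 CPM (n = 3). Neighbouring ranges overlapped except between iCAF-like cells and epithelium. Fibroblasts exceeded the epithelium by 4.33 ± 0.74 (log2, edgeR, adjusted p = 2.27e-05). Their difference from pericytes, -1.04 ± 0.43, did not pass (edgeR, adjusted p = 0.139), nor did that of iCAF-like minus telocyte-like cells, -1.01 ± 0.41 (edgeR, adjusted p = 0.181). The former passed in 2 of 14 alternatives, with only mt- genes counted as mitochondrial (adjusted p = 0.0343) and without FibΔZeb1 mouse 2 (0.0471), and the latter in 1, with no filter on low counts (0.0049). Within mice, iCAF-like against telocyte-like levels were 74.3 against 122 CPM in FibCtrl mouse 1, 65.8 against 107 CPM in FibΔZeb1 mouse 1 and 33.3 against 202 CPM in FibΔZeb1 mouse 2. In fibroblasts as a whole, FibCtrl mice had 83.7, 88.3 and 104 CPM and FibΔZeb1 mice 103, 69.0 and 34.5 CPM of *Snai1*. These values overlapped, and the genotype difference was -0.29 ± 0.34 (edgeR, adjusted p = 1.0).

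*Snai2*, which in skin and other stratified epithelia also marks basal cells, lies on chromosome 16 from 14705852 to 14709385 (plus strand). It had its highest mean in telocyte-like cells, at 97.0, 164 and 129 CPM in FibCtrl mice and 132 and 75.1 CPM in FibΔZeb1 mice 1 and 2. iCAF-like cells held 11.8 CPM in FibCtrl mouse 1 and 23.7 and 29.5 CPM in FibΔZeb1 mice 1 and 2. The ranges did not overlap. The log2 difference of iCAF-like minus telocyte-like cells was -2.11 ± 0.40 (edgeR with mouse as a block, adjusted p = 0.00414). The adjusted p was 0.124 without FibCtrl mouse 1 and 0.111 without FibΔZeb1 mouse 1, at -1.78 and -1.94. At 5000 barcodes *Snai2* was found in 34.5% ± 4.46 of telocyte-like cells (SD, n = 5 mice) and 9.64% ± 3.65 of iCAF-like cells (n = 3).

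*Snai2* was also the member with the smallest difference between fibroblasts and epithelium. Epithelial cells held 24.4, 44.9 and 12.01 CPM in FibCtrl mouse 3 and FibΔZeb1 mice 2 and 3. These levels rest on 6, 17 and 2 transcripts, found in 2, 7 and 2 cells, and the last is below the level of 3 counts. They came to 22.3%, 122% and 8.45% of the level in fibroblasts of the same mice. *Col3a1* was at 1.39% to 1.99% of the fibroblast level in the same epithelial sums. The *Snai2* share of FibΔZeb1 mouse 3 can therefore not be ranked against that of *Col3a1*. The part of RNA from other cells in these levels was not tested. Fibroblasts exceeded the epithelium by 1.58 ± 0.55 (log2, edgeR, adjusted p = 0.0333). The call was lost in 7 of 14 alternatives, at log2 differences down to 0.94. It was lost without FibCtrl mouse 1, FibCtrl mouse 3, FibΔZeb1 mouse 1 or FibΔZeb1 mouse 3 (adjusted p = 0.0512, 0.306, 0.0551 and 0.321). It was also lost with DESeq2 (adjusted p = 0.112), with DESeq2's size factors (0.0660) and with at least 20 cells per sum (0.405). In neutrophils *Snai2* was at 10.1 ± 9.84 CPM (n = 6), and fibroblasts exceeded them by 3.003 ± 0.61 (edgeR, adjusted p = 9.91e-05). By genotype, fibroblasts held 46.0, 119 and 109 CPM in FibCtrl mice and 88.2, 36.8 and 142 CPM in FibΔZeb1 mice. The lowest values were those of FibCtrl mouse 1 and FibΔZeb1 mouse 2, the mice in which iCAF-like cells were 51.4% and 77.0% of fibroblasts, and the difference of -0.04 ± 0.48 did not pass (edgeR, adjusted p = 1.0). The part of subtype make-up in these values was not tested.

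**Figure D2:**
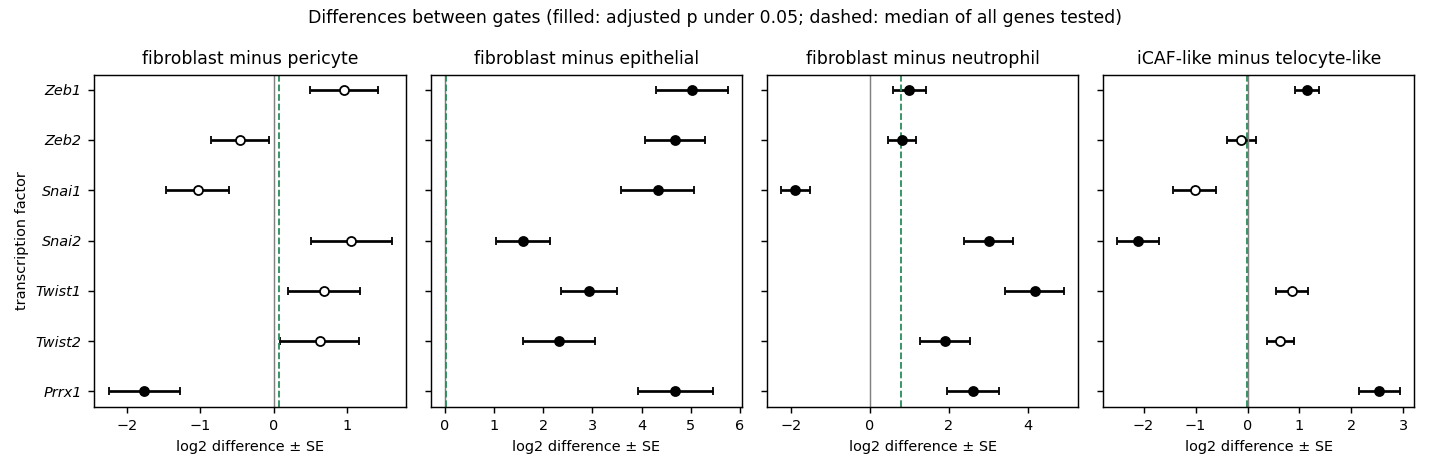
Log2 differences between gates on the x axis for each of the 7 factors on the y axis, from edgeR with mouse as a block. Points are estimates, bars are SE, filled points have an adjusted p under 0.05, grey lines mark 0 and dashed lines the median of all genes tested (0.78 against neutrophils). All 7 factors are to the right of 0 against the epithelium, and *Snai2* and *Prrx1* lie on opposite sides between iCAF-like and telocyte-like cells. The side against the epithelium had to follow where a factor passed the low-count filter through the other gates.

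*Twist1* lies on chromosome 12 from 33957671 to 33959829 (plus strand) and *Twist2* on chromosome 1 from 91801461 to 91848028 (plus strand). Both proteins act as dimers with E proteins and are known from the development of mesoderm and connective tissue. *Twist1* differed more between mice than between genotypes. In fibroblasts it was at 69.4, 30.7 and 174 CPM in FibCtrl mice and 70.4, 177 and 38.4 CPM in FibΔZeb1 mice. FibCtrl mouse 3 and FibΔZeb1 mouse 2 were high and the other 4 mice were at 70.4 CPM or below. The same 2 mice were highest within telocyte-like cells, at 179 and 221 CPM against 23.4 to 54.9 CPM in the other 3. Telocyte-like cells were 77.2% of the fibroblasts of the former and 11.5% of the latter. In pericytes FibCtrl mouse 3 had the lowest of 3 values, 44.9 CPM, from 6 transcripts. The genotype difference in fibroblasts was 0.14 ± 0.63 (edgeR, adjusted p = 1.0).

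*Twist1* had its 4 highest means in the mesenchymal gates. They were mean levels of 126 ± 35.9 CPM (n = 3) in iCAF-like cells, 103 ± 91.0 CPM (n = 5) in telocyte-like cells, 75.3 ± 68.0 CPM (n = 3) without a subtype and 64.2 ± 19.3 CPM (n = 3) in pericytes. Epithelium followed at 18.4 ± 23.4 CPM (n = 3) and neutrophils at 2.49 ± 4.68 CPM (n = 6). The epithelial mean rests mainly on FibCtrl mouse 3, at 44.7 CPM. Epithelial cells of FibCtrl mice held 11 *Twist1* transcripts, found in 2.70% of 37 cells. Of neighbouring gates in this order, pericytes and epithelium were the pair without overlap. In neutrophils 2 *Twist1* transcripts were counted over 6 mice, a median of 0% of the fibroblast level, which is within the share of the collagens. Fibroblasts exceeded neutrophils by 4.17 ± 0.74 (log2, edgeR, adjusted p = 1.49e-05) and epithelium by 2.93 ± 0.58 (edgeR, adjusted p = 0.000164). iCAF-like minus telocyte-like cells gave 0.85 ± 0.31 (edgeR, adjusted p = 0.120), which passed in 3 of 14 alternatives, at 0.000909 without FibΔZeb1 mouse 2, 0.000785 with at least 20 cells per sum and 0.0232 with no filter on low counts.

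*Twist2* was the least abundant member in fibroblasts, where 1 count stands for 1 molecule whatever the length of the gene. It was at 62.5, 57.6 and 30.9 CPM in FibCtrl mice and 55.6, 38.7 and 19.2 CPM in FibΔZeb1 mice. The genotypes overlapped, at a log2 difference of -0.26 ± 0.40 (edgeR, adjusted p = 1.0). Gate means ran from 61.9 ± 18.9 CPM (n = 3) in iCAF-like cells over 40.9 ± 9.09 CPM (n = 5) in telocyte-like cells, 38.3 ± 20.5 CPM (n = 3) in pericytes and 31.4 ± 14.5 CPM (n = 3) without a subtype to 12.7 ± 18.3 CPM (n = 6) in neutrophils and 7.42 ± 8.22 CPM (n = 3) in epithelium, and all neighbouring ranges overlapped. Fibroblasts exceeded epithelium by 2.31 ± 0.73 (log2, edgeR, adjusted p = 0.0185) and neutrophils by 1.90 ± 0.63 (edgeR, adjusted p = 0.0105, and 0.115 with at least 20 cells per sum). The epithelial difference became 1.17 with an adjusted p of 0.362 without FibΔZeb1 mouse 2, and the epithelial level rests on 5 transcripts. The subtypes differed by 0.63 ± 0.27 (edgeR, adjusted p = 0.194).

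*Prrx1*, a homeobox gene of limb and craniofacial mesenchyme, lies on chromosome 1 from 163245119 to 163313710 (minus strand). It separated the fibroblast subtypes in the direction opposite to *Snai2*. iCAF-like cells held 83.6 CPM in FibCtrl mouse 1 and 84.2 and 228 CPM in FibΔZeb1 mice 1 and 2. Telocyte-like cells held 4.48, 0 and 30.4 CPM in FibCtrl mice and 16.6 and 79.8 CPM in FibΔZeb1 mice. These ranges did not overlap. FibΔZeb1 mouse 3, with 4 iCAF-like and 9 telocyte-like cells and outside the test, went the other way, at 18.2 CPM from 1 transcript against 75.8 CPM. The log2 difference was 2.54 ± 0.40 (edgeR with mouse as a block, adjusted p = 0.00145) and passed in each of the 14 alternatives run, at adjusted p-values of 1.80e-13 to 0.0328. Not all of these could challenge it. Leaving out FibΔZeb1 mouse 3, which had no subtype sum of at least 10 cells, repeated the main fit. FibCtrl mice 2 and 3 had a telocyte-like sum only, which their own block absorbs. The subtype differences as fitted thus rest on 3 mice. In FibCtrl mouse 2 the 0 stands for 0 of 170802 transcripts of 11 telocyte-like cells, which allows up to 17.6 CPM by counting error. At 5000 barcodes, 36.2% ± 13.6 of iCAF-like cells (SD, n = 3 mice) and 8.01% ± 9.30 of telocyte-like cells (n = 5) held *Prrx1*.

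Pericytes had the highest mean of *Prrx1*, 191 ± 85.4 CPM (n = 3), with values of 96.3, 262 and 214 CPM in FibCtrl mice 1 and 3 and FibΔZeb1 mouse 1. Fibroblasts were lower than pericytes by -1.77 ± 0.49 (log2, edgeR, adjusted p = 0.0103), which made *Prrx1* the only member to pass in this comparison. The call was lost in 4 of 14 alternatives, with at least 20 cells per sum (-1.83, adjusted p = 0.345), without FibCtrl mouse 3 (-1.25, adjusted p = 0.281), without FibΔZeb1 mouse 1 (-1.51, adjusted p = 0.182) and with DESeq2 (-1.61, adjusted p = 0.0849). Fibroblasts exceeded epithelium by 4.68 ± 0.76 (edgeR, adjusted p = 1.05e-05) and neutrophils by 2.61 ± 0.66 (edgeR, adjusted p = 0.00104). By genotype, fibroblasts held 54.2, 34.5 and 36.5 CPM in FibCtrl mice and 44.5, 188 and 49.9 CPM in FibΔZeb1 mice. FibΔZeb1 mouse 2 stood apart, and 77.0% of its fibroblasts were iCAF-like. It was also the highest mouse within iCAF-like cells (228 CPM) and within telocyte-like cells (79.8 CPM). The part of subtype make-up in its level was not tested. The log2 difference of 1.18 ± 0.58 did not pass (edgeR, adjusted p = 1.0) and was 0.06 without that mouse.

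Relative to fibroblasts without a subtype, no member passed in either subtype as fitted, but several passed under alternatives. For iCAF-like cells 0.933% of genes passed and the members' log2 differences ran from -1.33 ± 0.47 for *Snai2* to 1.38 ± 0.38 for *Twist1* (edgeR, adjusted p = 0.281 and 0.123). *Twist1* passed in 5 of 14 alternatives (lowest adjusted p = 0.00152), *Snai2* in 4 (0.00285), *Prrx1* in 2 (0.00412) and *Zeb1* in 1 (0.0319). Without FibΔZeb1 mouse 2, the values were 0.00464 for *Twist1* and 0.00286 for *Snai2*. For telocyte-like cells 0.933% of genes passed as well, and the members ran from -1.40 ± 0.50 for *Prrx1* to 0.78 ± 0.41 for *Snai2* (edgeR, adjusted p = 0.270 and 0.522). *Prrx1* passed in 3 of 14 alternatives (lowest adjusted p = 0.00873, and 0.0109 without FibΔZeb1 mouse 2) and *Snai2* in 1 (0.0488). The cells without a subtype were shallower, with a median of 7130 barcodes against 10800 in iCAF-like and 14995 in telocyte-like cells, and the part of depth in which cells lack a subtype was not tested.

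**Figure D3:**
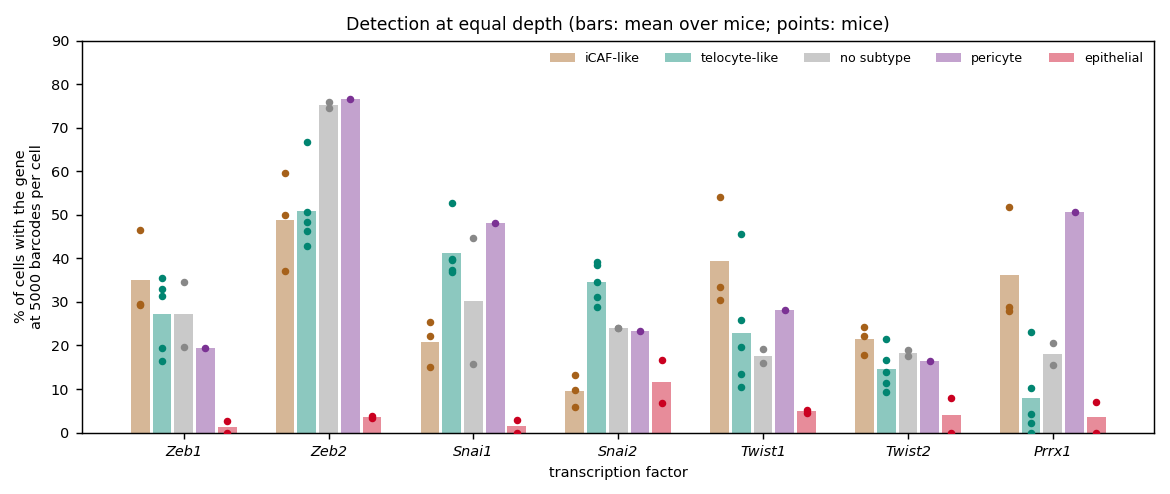
Share of cells, in percent, in which each factor was found after thinning every cell to 5000 barcodes. Bars are means over mice and points are mice with at least 10 such cells (3 for iCAF-like, 5 for telocyte-like, 2 without a subtype, 1 for pericytes, 2 for epithelium). *Zeb2* is found in 48.9% to 76.6% of the cells of mesenchymal gates on average, and every epithelial mean is below those of the mesenchymal gates except that of *Snai2*, which exceeds the iCAF-like mean.

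Several members were usually found in the same fibroblast. At 5000 barcodes an iCAF-like cell held 2.12 ± 0.0628 of the 7 factors (SD, n = 3 mice), a telocyte-like cell 1.99 ± 0.194 (n = 5), a fibroblast without a subtype 2.11 ± 0.113 (n = 2), and an epithelial cell 0.306 ± 0.0568 (n = 2). No factor was found in 6.78% ± 0.302 of iCAF-like and 75.2% ± 3.005 of epithelial cells. *Snai2* and *Prrx1* occurred together in 1.66% of fibroblasts on average, against 4.27% for the product of their shares within each mouse, and were below that product in 6 of 6 mice. The products pool the fibroblast subtypes of a mouse. *Snai2* was found more often in telocyte-like cells (34.5% against 9.64%) and *Prrx1* in iCAF-like cells (36.2% against 8.01%). A share below the product thus does not show that the 2 exclude each other within a subtype. The part of subtype make-up was not tested. *Zeb2* and *Snai2* were found together in 16.4% against a product of 13.4%, and *Twist1* and *Prrx1* in 8.32% against 6.40%, above the product in 6 of 6 mice each. *Zeb1* and *Zeb2* occurred together in 14.6% against 15.5% and were above the product in 2 of 6 mice. Of the 21 pairs, these shares are descriptions over 468 cells of 6 mice and were not tested.

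The genes most like each member were ranked by Pearson's r of log2(CPM + 1) over the 23 sums of a mouse and gate with at least 10 cells, among 7063 genes with a mean of at least 20 CPM. The sums share libraries, differ in depth and fall into cell types, so that r mostly measures the pattern over gates. *Zeb1* was most like *Cst3* (r = 0.87), *Col6a3*, one of the fibroblast markers (0.87), *Crispld2* (0.86), *Col6a2* (0.84) and *Col6a1* (0.84), so that 3 of its 5 nearest genes encode chains of collagen VI, whose *Col6a1* promoter drives Cre in these mice. *Zeb2* was most like *Tmem47*, *Adamts10*, *Col15a1*, *Foxf1* and *Col6a3* (r = 0.89 to 0.86). *Snai1* was most like *Wipf1*, *Ppp1r18*, *Ifnar2*, *Fam129a* and *Irak3* (0.89 to 0.86). *Snai2* was nearest to *Btbd3* (0.89), *Twist1* to 2210013O21Rik (0.92), *Twist2* to *Cygb* (0.89) and *Prrx1* to *Ank2* (0.86). Between members, r was highest for *Zeb1* and *Zeb2* (0.82) and lowest for *Snai1* and *Snai2* (0.01). Both ZEB genes were low in the epithelial sums, whereas their mean levels in the mesenchymal gates ran in opposite orders, *Zeb1* from iCAF-like cells down to pericytes and *Zeb2* from pericytes down to iCAF-like cells. Ranges of neighbouring mesenchymal gates overlapped for both genes, and the gates hold different mice and unequal parts of the genotypes. Among the tested differences between these gates, only that of *Zeb1* in iCAF-like minus telocyte-like cells passed.

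**Figure D4:**
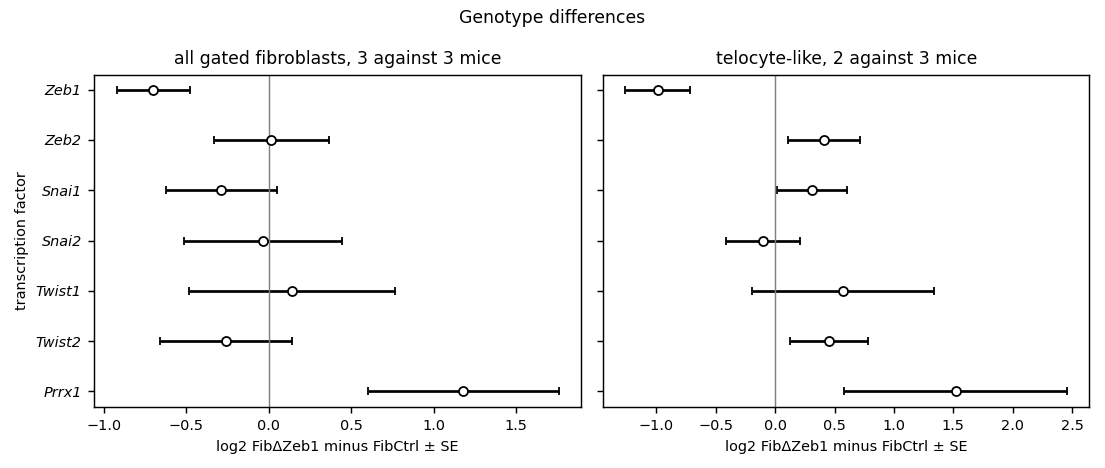
Log2 differences of FibΔZeb1 minus FibCtrl mice on the x axis for each factor on the y axis, over all gated fibroblasts (left, 3 against 3 mice) and telocyte-like cells (right, 2 against 3 mice). Points are edgeR estimates and bars are SE. *Zeb1* is at -0.70 and -0.99, *Prrx1* at 1.18 and 1.52, and no factor has an adjusted p under 0.05.

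Genes that work with or under the members were taken from 5 lists. The list of epithelial genes repressed by ZEB or SNAI proteins had few counts in fibroblasts. In the genotype comparison 1 of its 16 genes, *Cdh1* (E-cadherin), passed the low-count filter, at 0.44 ± 1.27 (log2, edgeR, adjusted p = 1.0). A genotype difference of the other 15 genes could not be measured at this depth. Against epithelial cells 10 of the 16 genes could be tested and all 10 were lower in fibroblasts, as had to follow where a gene passed the filter through its epithelial counts. *Cldn4* (claudin 4) differed by -5.50 ± 0.81, *Cdh1* by -3.98 ± 0.57, *Rab25* by -3.66 ± 0.54 and *Lsr* by -3.33 ± 0.49 (edgeR, adjusted p = 2.96e-06 or smaller). *Crb3*, named here for its promoter, differed by -3.48 ± 0.85 (adjusted p = 0.00230). The median over the list was -3.83 against 0.02 for all genes tested. It describes genes that could enter through their epithelial counts and is no test of the list. Between the fibroblast subtypes 5 of the 16 were tested and 0 passed.

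Of 14 mesenchymal genes, 13 were higher in fibroblasts than in epithelium, among them *Postn* (6.67 ± 0.60), *Col5a2* (6.64 ± 0.62), *Sparc* (4.70 ± 0.49) and *Mmp2* (4.54 ± 0.52). Of all 7742 genes tested, 21.8% passed in either direction and 1110 were higher in fibroblasts. The side of a mesenchymal gene had to follow where it passed the low-count filter through its fibroblast counts. Against pericytes, where 11.5% of all genes passed in either direction, 3 of the mesenchymal genes were higher and 3 lower. *Cdh11*, the cadherin of fibroblasts, was higher by 4.66 ± 0.63, and *Cdh2* (N-cadherin) was lower by -5.73 ± 0.83, together with the contractile genes *Acta2* (-2.08 ± 0.44) and *Tagln* (-1.87 ± 0.54). The cadherins and contractile genes thus divided fibroblasts from pericytes in both directions. Between subtypes, where 8.69% of all genes passed, 4 of 13 tested genes passed, all lower in iCAF-like than telocyte-like cells, namely *Tnc* (-3.07 ± 0.44), *Acta2* (-3.15 ± 0.45), *Tagln* (-2.77 ± 0.46) and *Cdh11* (-1.76 ± 0.34). Telocyte-like cells, with less *Zeb1* and *Prrx1* and more *Snai2*, held more of these contractile, matrix and adhesion genes. By genotype 0 of 13 passed, with a median of -0.13 against 0.00 for all genes.

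Of 15 corepressors and partners, 0 passed by genotype and 1 between subtypes, the E protein gene *Tcf4* (-1.20 ± 0.25, edgeR, adjusted p = 0.00902), a share near the 8.69% of all genes. In fibroblasts against epithelium, where 21.8% of all genes passed, *Id1* (-2.43 ± 0.39) and *Id2* (-1.32 ± 0.38), inhibitors of E proteins, were lower and *Id3* (1.36 ± 0.46) was higher. Among 12 genes of TGF-beta signal transduction, a pathway that induces EMT factors, 4 of 11 tested were higher in iCAF-like than telocyte-like cells, against 8.69% of all genes passing in either direction, namely *Tgfb3* (2.24 ± 0.36), *Tgfbr3* (1.68 ± 0.29), *Smad7* (1.64 ± 0.23) and *Skil* (1.06 ± 0.26), the latter 2 being inhibitors of the pathway. Against pericytes *Tgfbr3*, *Smad3* and *Tgfbr2* were higher in fibroblasts (3.27 ± 0.59, 3.13 ± 0.57 and 2.48 ± 0.51) and *Tgfb3* lower (-2.10 ± 0.47). Of 14 other EMT or mesenchymal transcription factors, *Sox9* (4.21 ± 0.68), *Prrx2* (5.34 ± 1.09) and *Tcf21* (1.70 ± 0.44) were higher in fibroblasts than in pericytes and *Foxc1* (-3.02 ± 0.75) and *Foxc2* (-3.82 ± 0.80) lower. Beside both lists stands the 11.5% of all genes that passed between fibroblasts and pericytes. *Prrx2*, the paralog of *Prrx1*, thus differed between these gates in the direction opposite to *Prrx1*. Between subtypes *Sox4* was lower in iCAF-like cells (-1.58 ± 0.28, edgeR, adjusted p = 0.00298). By genotype, 0 of 11 tested TGF-beta genes and 0 of 6 tested transcription factors passed in fibroblasts. Against neutrophils, 12 mesenchymal genes, 8 partners, 7 TGF-beta genes and 6 transcription factors were higher in fibroblasts. In this comparison 60.1% of all genes passed in either direction, and of 7742 genes 3063 were higher and 1590 lower. List genes that were lower in fibroblasts are not counted here, so that these counts are no result about the lists.

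**Figure D5:**
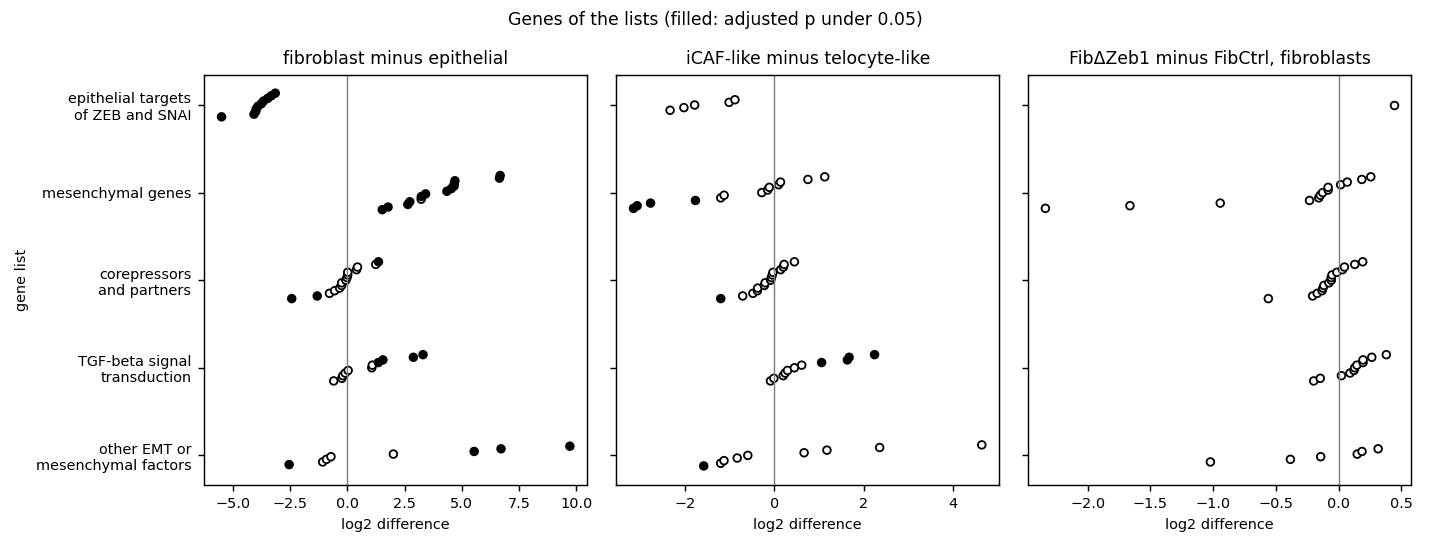
Log2 differences on the x axis of the tested genes of 5 lists on the y axis, 1 point per gene, filled where the adjusted p is under 0.05. The panels show fibroblasts minus epithelium, iCAF-like minus telocyte-like cells, and FibΔZeb1 minus FibCtrl fibroblasts, each with its own scale. Filled points are found in the first 2 panels, with 10 epithelial genes at -3.15 or below and 13 mesenchymal genes above 0, whereas the genotype panel holds 0 filled points. The side of an epithelial gene in the first panel had to follow where it passed the low-count filter through its epithelial counts. The same holds for a mesenchymal gene that passed it through its fibroblast counts.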

How the data were processed

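Live EPCAM-CD45-CD31- cells had been index sorted into 384-well plates for SORT-seq, 1 plate per mouse. Reads were mapped with BWA to GRCm38 transcripts and the authors deposited, per gene and well, barcode counts (whole-number counts of distinct molecular barcodes) and transcripts, which are estimated counts corrected for barcodes seen more than once. Cell Ranger 2.1.1 is also named in the submitters' processing notes, with no role given. Spike-ins (7.85% to 18.6% of a plate's transcripts) were left out. Wells with under 100 genes (82) or 10% or more mitochondrial counts (981) were left out. Wells carry the numbers 1 to 384 on every plate, so shared cell barcodes could not be counted, and no doublet caller was run.

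Groups came from the genotype labels. Cells were gated with lists of 10 markers that hold no member. The members and lists were chosen with earlier results of these data known, and the thresholds of the gates (3 markers, lead of 1) were set after marker counts and member values had been seen once. Transcripts were summed per mouse and gate (at least 10 cells), rounded and fitted in R 4.3.3 by the quasi-likelihood method of edgeR 4.0.16, with TMM scaling, the filterByExpr filter on low counts and Benjamini-Hochberg adjustment at 0.05. Cell types and subtypes were fitted over both genotypes with mouse as a block. SE is the size of the log2 difference divided by the square root of F. Genotype tests in iCAF-like cells, fibroblasts without a subtype and pericytes were not made, since fewer than 2 mice of a genotype had 10 cells. The fit of fibroblasts against pericytes by genotype had 1 FibΔZeb1 mouse in its pericyte arm. Each mouse is 1 plate, so mouse and plate cannot be told apart. The p-values by genotype rest on the spread between mice. Those between cell types and between subtypes, with mouse as a block, rest on the spread of gate differences within mice (9 and 4 residual degrees of freedom). Detection was the value expected after thinning each cell to 500 barcodes, leaving out shallower cells. Floors of 3 counts cover counting error only. From the lists, the 4 genes with the smallest p per list and direction were named. *Crb3* and *Procr* lie outside this rule and were chosen after their values had been seen. The 5 nearest genes per member were taken by Pearson's r. Alternatives were DESeq2 1.42.0, its size factors, no low-count filter, barcode counts, other well and gate thresholds, and leaving out each mouse. The fits were tested on counts simulated with known changes. Of 100 genes changed by a log2 fold of 1, 21 were called by genotype in fibroblasts and 10 in telocyte-like cells. For fibroblast minus pericyte 10 were called, and for iCAF-like minus telocyte-like 16. At a log2 fold of 2 the calls were 85, 73, 60 and 83 of 100, in the same order. A comparison in which 0 genes passed thus does not show that no gene changed. Python 3.11.15, pandas 2.3.3, numpy 2.4.6, scipy 1.17.1 and matplotlib 3.10.9 were used.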

Additional observations from a re-analysis of the deposited data

Results flagged for a closer look

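In 4 of 21 groups of mice, both genotypes pooled, 1 mouse stood far from the others, where chance gives about 1 in 20. *Snai1* in telocyte-like cells was 202 CPM in FibΔZeb1 mouse 2. *Prrx1* in fibroblasts was 188 CPM in the same mouse. *Twist1* in neutrophils was 11.7 CPM in FibΔZeb1 mouse 2, from 1 transcript, and *Twist2* in neutrophils was 48.7 CPM in FibCtrl mouse 1, from 2 transcripts.

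The 981 wells with 10% or more mitochondrial counts, which entered no comparison, also held the members. Their levels there were 27.3 CPM for *Zeb1*, 80.9 CPM for *Zeb2*, 51.1 CPM for *Snai1*, 36.0 CPM for *Snai2*, 23.6 CPM for *Twist1*, 12.8 CPM for *Twist2* and 23.8 CPM for *Prrx1*, against 0.422 CPM for 3 counts. The 82 wells with under 100 genes held 0 transcripts of the members, which allows up to 348 CPM.

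The fit of the genotype difference in fibroblasts against that in pericytes called 6 genes (edgeR, 1 residual degree of freedom). Its FibΔZeb1 pericyte arm was 1 mouse, assumed to vary like the other sums, so that these genes are not shown to differ between the gates. There were 289 genes at an unadjusted p under 0.05 and 0 called by DESeq2. The 6 genes were *Mmp13*, *Cxcl10*, *Actg2* and *Ramp1* (lower) and *Apold1* and *Rrad* (higher), and no member was among them.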

How the results depend on the processing

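Of 846 log2 differences of the members under alternatives, 768 kept direction and side of the threshold, 26 lost a call, 22 gained one and 30, none of them called, turned sign. Those without FibΔZeb1 mouse 3 repeat the main fit in the subtype comparisons and by genotype in telocyte-like cells, where this mouse had no sum. *Zeb1* in FibΔZeb1 fibroblasts stayed lower in 14 of 14 alternatives (-0.84 to -0.58) and passed in 0. The cause of the changes below was not tested. No paired analysis was possible because the labels give no replicate numbers shared by the genotypes.

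Genes called by genotype were 1 in fibroblasts and 7 in telocyte-like cells with DESeq2, and in the latter 166 with no filter on low counts, 60 with at least 20 cells and 0 to 3 without 1 mouse. For fibroblast minus pericyte they were 583 with a gate lead of 2 markers, 382 with 20 cells and 505 to 1129 without 1 mouse, and for fibroblast minus epithelial 1059 to 1684 without 1 mouse. For iCAF-like minus telocyte-like they were 539 with DESeq2, 1455 with a lead of 2 and 204 to 1181 without 1 mouse. For iCAF-like minus no subtype they were 453 with no filter, 309 with only mt- genes as mitochondrial, 397 with a lead of 2, 223 with 20 cells and 21 to 215 without 1 mouse. For telocyte-like minus no subtype they were 438, 350, 382, 334 and 25 to 336 in the same order. The interaction gave 0 with DESeq2 and 3 with only mt- genes. It could not be fitted with a lead of 2, with 20 cells, or without FibCtrl mouse 1, FibCtrl mouse 3 or FibΔZeb1 mouse 1. *Zeb1* was found in 7.67% of fibroblasts at 1000 barcodes, 46.0% without thinning and 29.6% at 5000 barcodes, the latter chosen after seeing the data.

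Signs turned as follows, as log2. With only mt- genes, *Snai2* by genotype was 0.10 in fibroblasts and 0.22 in telocyte-like cells, *Snai1* -0.025 in the latter, *Zeb1* telocyte-like minus no subtype 0.20, and the interaction 0.40 for *Zeb1*, -0.52 for *Snai1* and 0.069 for *Twist2*. The *Snai1* interaction was -0.043 with no filter and -0.020 without wells holding *Ptprc* or *Epcam*. *Snai2* by genotype in telocyte-like cells was 0.014 with a lead of 2. With 20 cells, genotype values in telocyte-like cells were -0.12 (*Snai1*), 0.33 (*Snai2*) and -0.82 (*Twist1*), and *Twist1* fibroblast minus pericyte was -0.20. Without 1 mouse, genotype values in fibroblasts were -0.67 to 0.84 (*Twist1*), -0.64 to 0.071 (*Twist2*), -0.38 to 0.35 (*Snai2*) and -0.44 to 0.26 (*Zeb2*), and in telocyte-like cells -0.66 to 0.17 (*Snai2*), -0.14 to 0.73 (*Zeb2*), -0.12 to 0.78 (*Snai1*) and -0.55 to 1.98 (*Twist1*). *Twist1* fibroblast minus pericyte was -0.0056 to 1.57, and *Snai1* iCAF-like minus no subtype -1.14 to 0.61.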
